A study of Drosophila melanogaster with 40 samples.

Results

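The Enhancer of split complex is a cluster of short genes on chromosome arm 3R of Drosophila melanogaster, and 9 of its genes are described here by the proteins found over them in very early embryos. The members were taken by name from the Ensembl release 115 version of the FlyBase annotation of the dm6 genome, out of 13968 protein-coding genes on the chromosome arms. A peak was assigned to a member where it overlapped the gene body or the 2 kb to either side of it, which is called the window of that member. Chromatin immunoprecipitation followed by sequencing (ChIP-seq) finds the DNA held by a protein, and the peak lists of 14 of the 40 samples in the series were used. All 14 came from embryos aged 0.5 to 1.5 h, in 7 groups of 2 replicates, and the study asked how dPCIF1 and HIRA shape the chromatin on which the zygotic genome is switched on.

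Antibodies to 5 proteins were used on wild-type embryos. These were dPCIF1 (Drosophila PCIF1, a relative of a mammalian mRNA cap-adenosine methyltransferase), HIRA (a chaperone that deposits the histone variant H3.3), the Ser5-phosphorylated form of RNA polymerase II that is found near promoters (RNA Pol II-Ser5P), and the pioneer factors GAF and Zelda, which open chromatin. GAF and Zelda were also precipitated from M-Z+ dPCIF1 mutant embryos, which lack the maternal dPCIF1 product and carry a zygotic copy of the gene, and which are called dPCIF1 maternal mutant embryos or the mutant below. Each replicate was one pool of 50 mg of whole embryos selected by hand, so cells of all positions in the embryo were averaged. A deposited list gives the start and end of each peak and no height, so every value below says how much DNA lay under a called peak, not how strongly a protein was bound. The depth of the libraries is unknown, and a wider peak from a deeper or cleaner library and one from wider binding cannot be told apart.

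Notch signalling passes between touching cells. When a ligand binds the Notch receptor, the cleaved receptor enters the nucleus, joins the DNA-binding protein Su(H), and switches on the Enhancer of split genes. Most of these encode basic helix-loop-helix (bHLH) Orange repressors, which recruit the corepressor Groucho and keep a cell from becoming a neural precursor. The others encode small Bearded family proteins, which restrain Neuralized, the ubiquitin ligase that makes a Notch ligand active. In the early embryo several of the genes are switched on in the mesectoderm, a single row of cells on each side of the mesoderm, later than the age sampled here.

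Of the 9 members, 7 encode bHLH repressors and 2 (E(spl)malpha-BFM and E(spl)m4-BFM) encode Bearded family proteins. In dm6 they ran from E(spl)mdelta-HLH (chr3R:25997621-25998633) through E(spl)mgamma-HLH, E(spl)mbeta-HLH, E(spl)malpha-BFM, E(spl)m3-HLH, E(spl)m4-BFM, E(spl)m5-HLH and E(spl)m7-HLH to E(spl)m8-HLH (chr3R:26040240-26041008), a span of 43388 bp. The genes were short, 676 to 1305 bp with a median of 911 bp, against a median of 2164.5 bp over all protein-coding genes. Their windows joined into 6 blocks of 36405 bp in total, because the windows of 3 of the 36 pairs overlapped (mdelta and mgamma, m3 and m4, m7 and m8). Neighbouring members therefore shared part of their peaks and are not independent of each other.

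**Figure D1:**
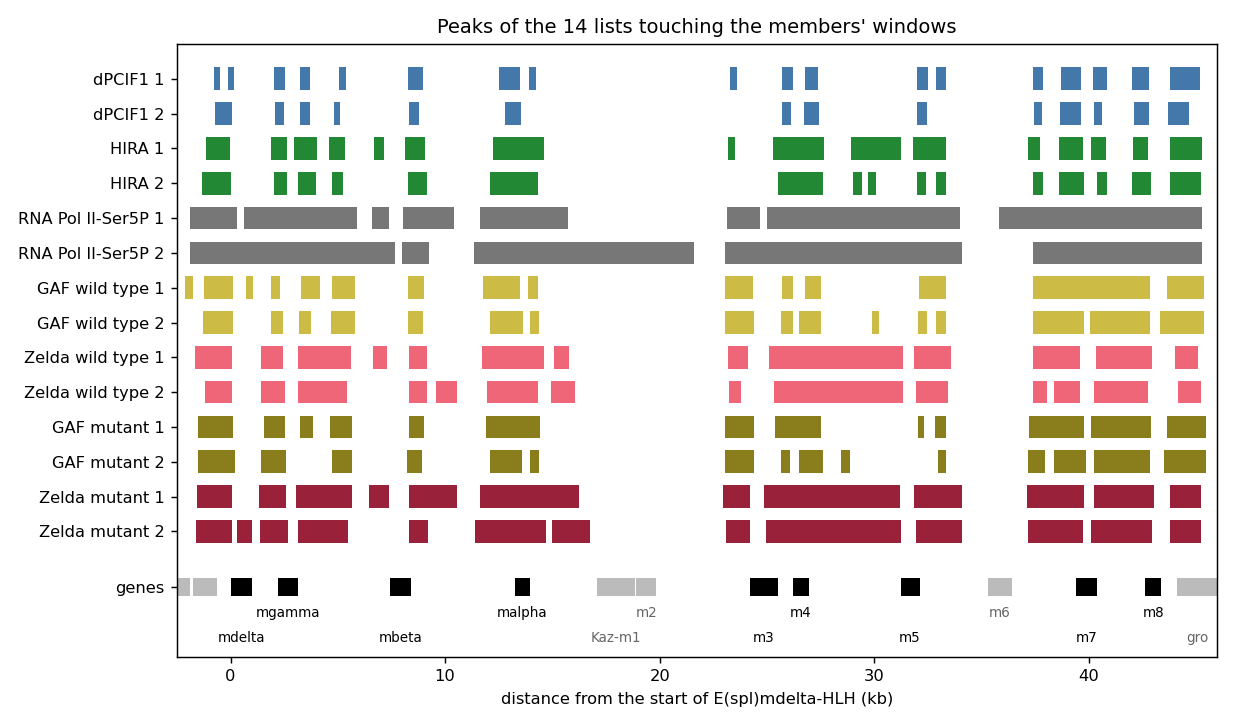
Each bar is a peak of 1 list that touches a member's window, drawn by distance (kb) from the start of E(spl)mdelta-HLH, with 1 row per list and the protein-coding genes below (members black, other genes grey). RNA Pol II-Ser5P peaks were the broadest, at most 11065 bp, and Zelda peaks ran from m4 to m5 where GAF peaks were few.

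Short stretches were under a peak in every one of the 14 lists. The central 250 bases of the 3 longest such stretches whose centre lies outside annotated genes are given, to show DNA on which all 5 proteins were found. They are printed 5′ to 3′ on the plus strand of dm6, from the RefSeq genome sequence, and capitals mark matches on either strand to GAGAG (the GAF motif), CAGGTA (the Zelda motif) and TGGGAA (the core of the Su(H) motif), none of which overlap each other.
E(spl)malpha-BFM: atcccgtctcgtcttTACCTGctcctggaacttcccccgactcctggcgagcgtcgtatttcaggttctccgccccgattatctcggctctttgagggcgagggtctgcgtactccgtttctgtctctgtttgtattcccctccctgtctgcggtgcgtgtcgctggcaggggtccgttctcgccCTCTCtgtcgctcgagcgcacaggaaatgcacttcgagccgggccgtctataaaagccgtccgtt
E(spl)m7-HLH: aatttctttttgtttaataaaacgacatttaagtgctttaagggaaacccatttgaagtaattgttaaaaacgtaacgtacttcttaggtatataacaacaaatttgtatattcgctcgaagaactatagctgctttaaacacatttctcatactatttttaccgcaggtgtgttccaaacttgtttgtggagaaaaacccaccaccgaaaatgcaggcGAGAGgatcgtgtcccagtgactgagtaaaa
E(spl)m8-HLH: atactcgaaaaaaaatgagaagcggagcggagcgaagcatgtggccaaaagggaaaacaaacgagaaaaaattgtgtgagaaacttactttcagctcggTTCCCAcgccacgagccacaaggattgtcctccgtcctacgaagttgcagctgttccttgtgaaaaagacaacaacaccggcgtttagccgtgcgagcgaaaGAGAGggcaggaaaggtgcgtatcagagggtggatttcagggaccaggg
The E(spl)malpha-BFM window (chr3R:26010627-26010876) was centred at -141 bp from the gene start (upstream is negative) and held a GAGAG match at -79 bp and a CAGGTA match at -248 bp. The E(spl)m7-HLH window (chr3R:26036643-26036892) was centred at -270 bp and held a GAGAG match at -174 bp. The E(spl)m8-HLH window (chr3R:26039942-26040191) was centred at -173 bp, with a GAGAG match at -95 bp and a TGGGAA match at -196 bp. These 3 windows were chosen after motif counts had been seen: under the rule set for sequences, windows at the centre of stretches shared by all 4 GAF and all 4 Zelda lists, those of m8, malpha and m7 held 0 matches to each motif and that of m4 held 1 TGGGAA match.

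Over the stretches of at least 250 bp under a peak in all 14 lists, 7 of the 8 at the members had a GAGAG match in their central 250 bases, 2 had CAGGTA and 4 had TGGGAA. The same shares were 62.5%, 20.9% and 14.8% of the 554 stretches of this kind in the genome, and 26%, 5.73% and 14.3% of 547972 tiles of 250 bases along the arms. The 14 stretches at the members that all 4 GAF and all 4 Zelda lists shared went the other way for 2 of the motifs. Of these, 5 had GAGAG (35.7%, against 58.9% of 1124 such stretches in the genome), 1 had CAGGTA (7.14% against 19.9%) and 4 had TGGGAA (28.6% against 17.3%). Counted over whole windows, GAGAG matches stood at 4.12 per kb in the bases under a peak in all 14 lists and at 1.26 per kb in the other bases of the windows. TGGGAA stood at 2.44 and 1.29 per kb in those same bases, against 0.645 per kb over the chromosome arms. CAGGTA was rare, with 11 matches in all the windows together and 4 of them, placed by their first base, under a peak in all 14 lists. In the bases that all 4 Zelda lists and no GAF list covered, both GAGAG and TGGGAA had 2 matches in 4123 bp. CAGGTA had 1 match there, 0.243 per kb against 0.247 per kb over the chromosome arms. Over all the windows GAGAG stood at 1.68 per kb, near the 1.57 per kb of the arms. These letters are a description of the windows, and a match is not a measured binding site.

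All 9 members had a peak in their window in each of the 14 lists. Over all protein-coding genes, a peak in both replicates was found at 26.1% of genes for dPCIF1, 20.5% for HIRA, 62.6% for RNA Pol II-Ser5P, 31.2% for GAF and 14.9% for Zelda in the wild type. In the mutant the shares were 28.8% for GAF and 15.8% for Zelda, and 7.41% of genes had a peak in all 14 lists. The count of 9 of 9 was held by every group where the window was cut to 1 kb to either side of the gene. It fell to 4 for RNA Pol II-Ser5P where at least 50% of a peak had to lie inside the window, since its domains reached beyond the windows, and the 6 other groups then kept 9 of 9.

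The members' start sites were under a peak almost as often. In both replicates the gene start lay under a peak at 8 of 9 members for dPCIF1 (12.4% of all genes), 7 for HIRA (8.01%), 9 for RNA Pol II-Ser5P (42.3%), 9 for wild-type GAF (15.1%) and 8 for wild-type Zelda (3.34%). In the mutant it was 8 of 9 for GAF (13.1%) and 8 of 9 for Zelda (3.82%). The start of 6 members (mgamma, mbeta, malpha, m4, m7 and m8) was under a peak in all 14 lists, against 1.24% of all genes.

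The exceptions were 3 bHLH genes. At E(spl)m3-HLH, a bHLH repressor and the longest member, the edge of the nearest dPCIF1 peak lay at -599 bp from the start in replicate 1 and at 1493 bp in replicate 2. That of the nearest HIRA peak lay at -689 and 1304 bp, while GAF and RNA Pol II-Ser5P covered it in every list. Zelda covered the m3 start in 1 of 4 lists, mutant replicate 1, and in the 3 others its peak ended at -9, -83 and -401 bp. At E(spl)mdelta-HLH the HIRA peak of replicate 1 ended at -14 bp, and at E(spl)m5-HLH the GAF peak of mutant replicate 2 ended at -857 bp.

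Peaks of the DNA-binding and chromatin proteins sat on and just upstream of the starts, fell away inside most genes and came back farther downstream, while RNA Pol II-Ser5P ran on through most of the genes. In wild-type GAF the starts of 9 members were covered in both lists, and 500 bp into the gene 1 and 0 members were. For dPCIF1 the counts were 8 and 8 at the start, and 0 and 0 at both 300 and 500 bp downstream. HIRA covered 7 and 8 starts and 2 and 2 members at 500 bp, and wild-type Zelda 8 and 8 starts and 2 and 2 at 500 bp. For both proteins these 2 members were the Bearded family genes malpha and m4, whose bodies were covered whole. No bHLH gene was covered at that point in these HIRA and wild-type Zelda lists. RNA Pol II-Ser5P still covered 6 and 8 members at 500 bp. Over all genes whose start lay under a wild-type GAF peak, 44.5% and 42.5% were also covered 500 bp downstream in the 2 lists, against 11.1% and 0% of the members. For RNA Pol II-Ser5P the direction was the other way, 46.6% and 48.2% of such genes against 66.7% and 88.9% of such members. HIRA covered 20.4% and 20.6% of such genes and 28.6% and 25% of such members, and wild-type Zelda 26.0% and 23.2% of genes and 25% and 25% of members, values that lay near each other. For dPCIF1 the shares were 22.1% and 20.3% of genes and 0% of members in both lists. These shares rest on at most 9 members and were not tested.

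**Figure D2:**
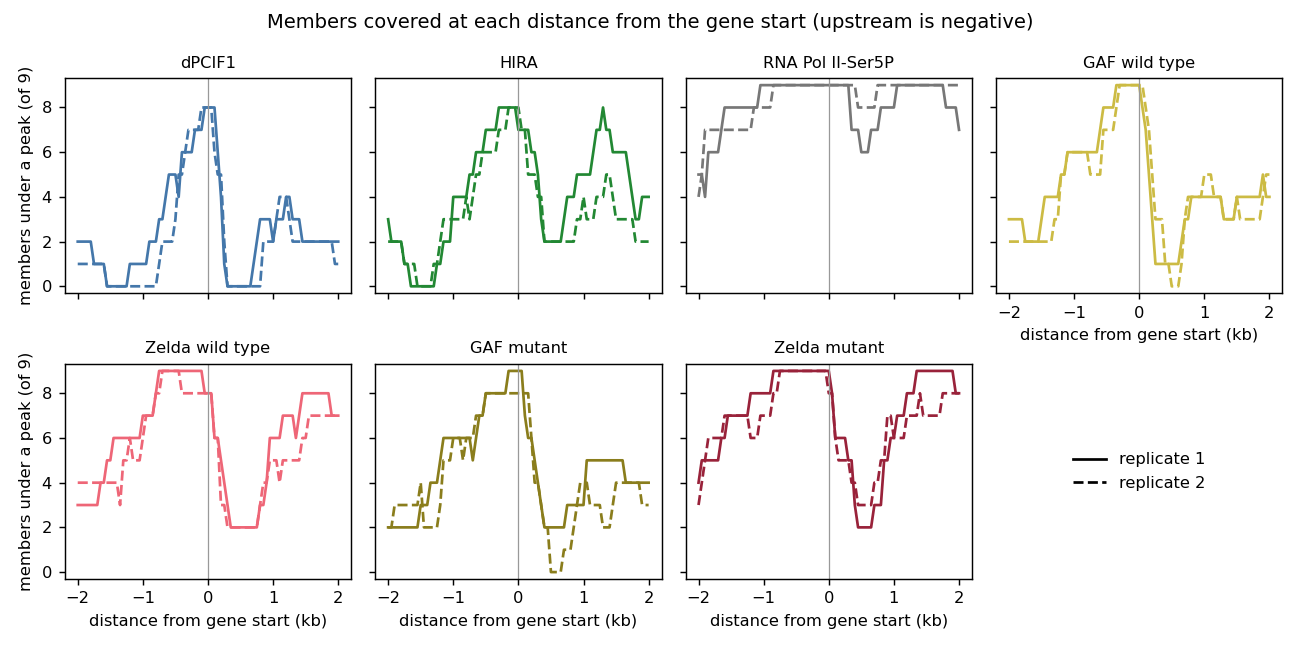
Each line gives, for 1 list, how many of the 9 members lay under a peak at each distance (kb) from the gene start, with upstream negative, and solid and dashed lines mark the replicates. Lines for all proteins but RNA Pol II-Ser5P dropped to between 0 and 3 members 500 bp into the genes.

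The 3 parts of a window differed in the same way. Wild-type GAF lay over 62.3% and 55.2% of the 2 kb upstream of the members in the 2 lists, 30.2% and 33.7% of the gene bodies and 45.2% and 49.6% of the 2 kb downstream. Wild-type Zelda lay over 73.4% and 69.1% upstream, 42.2% and 38.5% of the bodies and 74.8% and 69.5% downstream. The Zelda body means include malpha and m4, whose bodies were covered whole in both lists, against at most 42.9% for a bHLH gene. Over all protein-coding genes both factors also covered the upstream 2 kb more than the gene body, 9.54% and 9.68% against 4.47% and 4.57% for GAF and 3.31% and 3.06% against 1.80% and 1.52% for Zelda. In the 3 pairs of members with overlapping windows, part of the downstream sequence of the first is upstream sequence of the second.

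How much of the windows lay under a peak differed between the 5 proteins in wild-type embryos. Of the joined windows, RNA Pol II-Ser5P covered 89.6% and 92.9% in its 2 lists, Zelda 67.6% and 62.3%, GAF 49.1% and 47.7%, HIRA 49.2% and 39.4%, and dPCIF1 27.9% and 22.8%. The group means were 91.3% ± 2.34, 64.9% ± 3.72, 48.4% ± 1.03, 44.3% ± 6.92 and 25.4% ± 3.66 in that order (SD, n = 2 each). The 2 GAF values lay inside the range of the 2 HIRA values, so these neighbours in the order did not differ beyond their spread, and the other neighbours did not overlap. Between-protein differences made up 0.984 of the sum of squares, with an exact permutation p of 0.00317 over the 945 ways to pair 10 lists (0.00952 adjusted over 3 tests). Since RNA Pol II-Ser5P forms the broadest peaks, the test was repeated without it, an alternative added after seeing the data, and gave 0.954 with an exact permutation p of 0.0286.

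The proteins came in another order relative to how much of the genome each list covered. The covered share of the windows was 28.8 and 31.9 times that of the chromosome arms for Zelda, 24.1 and 25.2 times for HIRA, 13.7 and 13.9 times for dPCIF1, 9.26 and 8.89 times for GAF and 8.60 and 8.79 times for RNA Pol II-Ser5P. GAF and HIRA, alike in covered share, were thus apart on this scale, and GAF stood next to RNA Pol II-Ser5P. A window covered whole sets a ceiling, which is lower for lists that cover more of the arms. RNA Pol II-Ser5P covered 10.4% and 10.6% of the arms, GAF 5.31% and 5.37%, and HIRA 2.04% and 1.56%. RNA Pol II-Ser5P could therefore not reach the values of dPCIF1, HIRA or Zelda, nor GAF those of HIRA or Zelda. The order in part restates how much of the genome each list covers. On this scale the between-protein share of the sum of squares was 0.993, with an exact permutation p of 0.00106, the smallest that these lists allow.

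**Figure D3:**
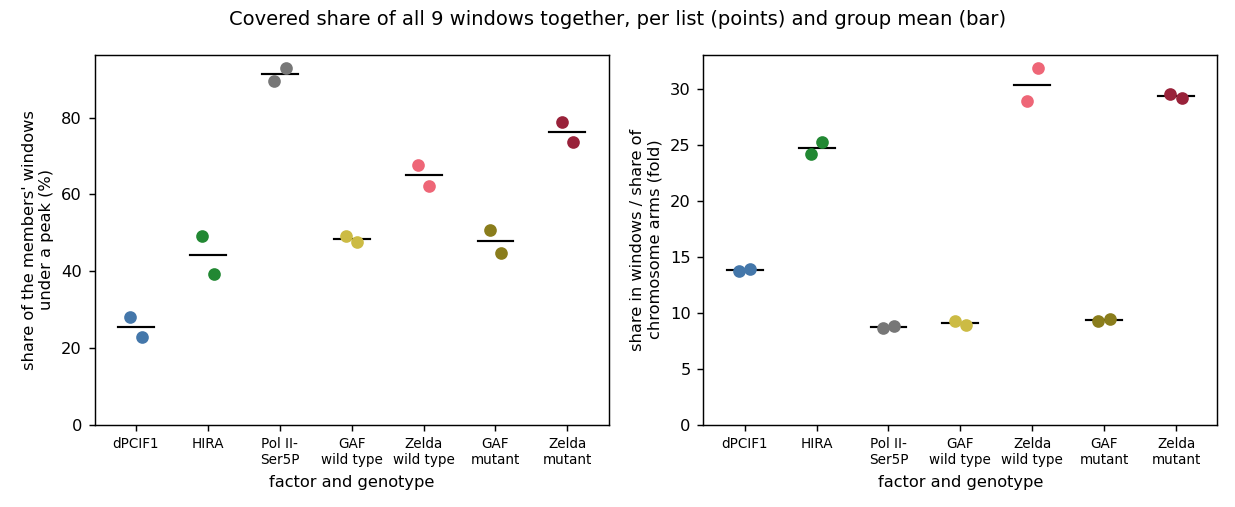
Points are the 2 lists of each group and bars their mean. The left panel gives the share (%) of the joined windows under a peak, and the right panel that share divided by the share of the chromosome arms under a peak (fold), where both Zelda groups lay near 30 and GAF near 9.

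The median covered share of the members stood far above that of all genes in every list. For Zelda in the wild type the median over the 9 members was 71.5% and 68.2% of the window, a value that 99.9% of all protein-coding genes fell below in each list. For HIRA it was 49.7% and 38.5%, above 99.3% and 99.1% of genes, and for RNA Pol II-Ser5P 93.8% and 98.7%, above 99.0% and 99.2%. GAF reached 46.1% and 40.3%, above 97.2% and 95.9% of genes, and dPCIF1 23.3% and 23.6%, above 96.7% and 97.5%. The median over all genes was 0% for each protein except RNA Pol II-Ser5P, at 11.9% and 12.1%.

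The members were not covered alike. E(spl)m7-HLH and E(spl)m8-HLH, the bHLH repressor genes at the end of the cluster next to gro, were the most covered by GAF, with 100% and 94.2% for m7 and 83.3% and 90.0% for m8 in the wild type. Their dPCIF1 shares were 48.0% and 41.5% for m7 and 50.9% and 36.0% for m8, above the 9.48% to 27.3% of the 7 other members. With ties counted, m7 had the highest share in 9 of the 14 lists and m8 in 3.

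E(spl)mbeta-HLH, another bHLH repressor gene, had the lowest covered share in 10 of the 14 lists. In the wild type its window was covered to 13.8% and 9.82% by dPCIF1, 27.7% and 17.5% by HIRA, 72.4% and 70.7% by RNA Pol II-Ser5P, 22.6% and 22.3% by GAF and 33.8% and 32.4% by Zelda. Its start lay under a peak in all 14 lists even so, in a stretch of 467 bp (chr3R:26005952-26006418) that all of them covered. Inside the mbeta gene, 325 bp (chr3R:26005290-26005614) lay under no peak of any list.

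E(spl)m5-HLH and E(spl)m4-BFM parted GAF from Zelda. At m5 the wild-type lists gave 25.5% and 23.3% for GAF against 78.8% and 74.1% for Zelda. At m4, which encodes a Bearded family protein, they gave 30.3% and 36.2% for GAF against 81.6% and 76.2% for Zelda. E(spl)m7-HLH was the reverse in direction, with GAF at 94.2% or more and Zelda at 84.9% and 79.1%, and E(spl)m8-HLH likewise, with GAF at 83.3% and 90.0% and Zelda at 71.5% and 68.2%. The wild-type values of the 2 factors did not overlap in any of these 4 genes. They did not overlap at mdelta, mgamma, mbeta and malpha either, where Zelda was higher, and overlapped only at m3. Within 1 kb of the gene start those of m8 overlapped, with GAF at 62.4% and 77.7% and Zelda at 66.4% and 58.2%. In that narrower window GAF was higher without overlap at mdelta, with 70.2% and 55.9% against 52.7% and 53.3% for Zelda. It was also higher without overlap at m3, with 57.8% and 58.6% against 52.2% and 29.3%. At the remaining members the direction of the full window held.

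By the covered share of the whole window, the 2 Bearded family genes did not form a group apart from the bHLH genes. In the wild type E(spl)malpha-BFM was covered to 46.1% and 42.7% by GAF and 77.8% and 73.8% by Zelda, and E(spl)m4-BFM to less by GAF. HIRA lay over 50.9% and 47.5% of the malpha window and 49.7% and 44.8% of the m4 window, inside the range of the bHLH genes, which ran from 17.5% to 73.4% over the 2 lists. The remaining members, mdelta, mgamma and m3, had 33.0% to 53.9% of their windows under wild-type GAF and 47.6% to 63.7% under wild-type Zelda. Inside the gene bodies the 2 classes were apart in the HIRA and Zelda lists. HIRA covered 100% of both Bearded bodies in each list, and at most 64.9% of a bHLH body. All 4 Zelda lists covered both Bearded bodies whole. The highest bHLH body stood at 42.9% in the wild-type Zelda lists and 72.2% in the mutant ones. GAF did not part the classes there, since it covered 100% and 70.8% of the m7 body in the wild type.

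**Figure D4:**
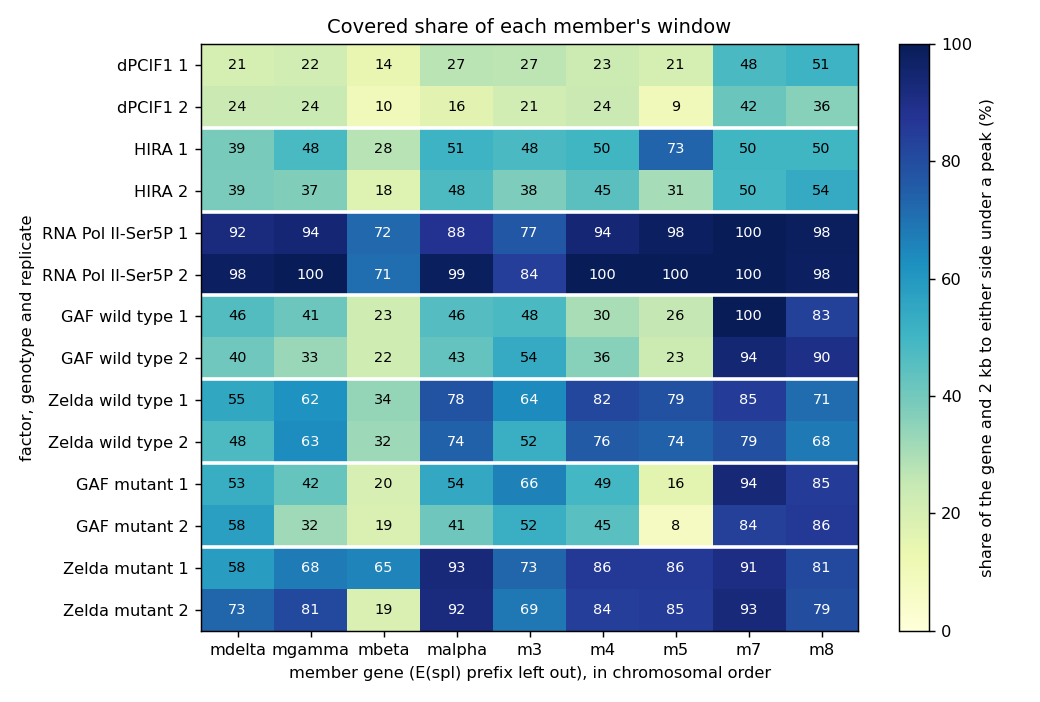
Each cell gives the share (%) of 1 member's window under a peak in 1 list, with lists in rows and the 9 members in chromosomal order in columns (colour scale 0 to 100%). The mbeta column is low in most rows, and m7 and m8 are the highest in the GAF rows.

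The 14 lists overlapped within the windows down to single bases. Merging all their peaks left 5 regions of 2578 to 11144 bp, each with a peak from all 14 lists, so the overlap was taken base by base, a choice made after seeing this. Of the 36405 bp, 5336 bp (14.7%) lay under a peak in all 14 lists and 1154 bp (3.17%) under none. The bases common to all lists fell into 11 stretches of at least 100 bp, of which 6 held a member's start. The longest, of 852 bp (chr3R:26036342-26037193), was centred at -270 bp from the m7 start and reached into the gene.

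Where GAF was called in all 4 lists, Zelda mostly was too. Of the 13838 bp under all 4 GAF lists, 83.9% lay under all 4 Zelda lists as well, and of the 21023 bp under all 4 Zelda lists 55.3% lay under all 4 GAF lists. All 4 Zelda lists and no GAF list covered 4123 bp, and all 4 GAF lists and no Zelda list 436 bp. Zelda stretches without GAF of 819 bp (chr3R:26025247-26026065) and 685 bp (chr3R:26026854-26027538) lay between the m4 and m5 genes, and one of 728 bp (chr3R:26012689-26013416) lay downstream of malpha. The dPCIF1 bases were nested in the HIRA bases in the same manner. Of the 7312 bp under both dPCIF1 lists, 94.7% lay under both HIRA lists, and of the 13498 bp under both HIRA lists 51.3% lay under both dPCIF1 lists.

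The replicates placed their peaks over the members more alike than over the genome as a whole. The Jaccard index, the bases shared by 2 lists divided by the bases in either, was 0.806 between the wild-type GAF replicates at the members and 0.745 over the genome. It was 0.814 against 0.480 for wild-type Zelda, 0.721 against 0.456 for HIRA, 0.655 against 0.519 for dPCIF1 and 0.900 against 0.698 for RNA Pol II-Ser5P. Between GAF and Zelda in the wild type the mean over 4 pairs of lists was 0.554 at the members and 0.149 over the genome. The index rises with the share covered, which was many times higher at the members, and it was not adjusted for that.

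In the mutant lists every member still had at least 1 GAF peak and 1 Zelda peak in its window. No member could gain a peak for GAF (0.852% of all genes did) or for Zelda (1.07%), since each had one in every wild-type list. Here gained means that both mutant replicates had a peak and no wild-type replicate did. No member lost one for GAF (2.53% of all genes) or for Zelda (0.995%), and 0 of 9 lies near these shares. Parts of windows still differed, as at a stretch of 147 bp (chr3R:26029921-26030067) near the m5 start. It was under both wild-type GAF lists and no mutant GAF list. The overlap of peaks between the genotypes lay near that between replicates. The mean Jaccard index between wild-type and mutant lists was 0.770 for GAF (0.696 to 0.835 over 4 pairs) against 0.806 and 0.775 between replicates. For Zelda it was 0.812 (0.779 to 0.848) against 0.814 and 0.851.

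GAF covered about as much of the windows in the mutant, 50.8% and 44.8%, as in the wild type, 49.1% and 47.7%. The difference in means was -0.65 percentage points, with an exact permutation p of 1 in a two-sided test. With 2 lists against 2 the smallest p possible is 0.33, so no difference could pass a threshold here.

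Single members moved in both directions. E(spl)mdelta-HLH was covered to 46.3% and 40.3% by wild-type GAF and to 52.6% and 57.5% in the mutant. E(spl)m4-BFM went from 30.3% and 36.2% to 49.5% and 45.0%. These were the 2 members whose mutant lists both lay above both wild-type lists, as at 7.3% of all genes. Both calls depended on the window. Within 1 kb of the gene start the GAF values of mdelta were 70.2% and 55.9% in wild-type lists against 56.6% and 60.9% in mutant lists, a difference of -4.30 points, those of m4 overlapped (50.4% and 63.5% against 77.2% and 62.8%), and the higher members were mgamma and m3. With 1 kb flanks m4 overlapped as well. E(spl)m5-HLH, with wild-type values of 25.5% and 23.3% against mutant values of 15.9% and 7.80%, was lower, as were E(spl)m7-HLH, with 100% and 94.2% against 93.6% and 83.6%, and E(spl)mbeta-HLH, with 22.6% and 22.3% against 19.9% and 19.1%. A lower share in this sense was found at 11.4% of all genes. The mbeta call depended on the window as well, since its values overlapped with 1 kb flanks and within 1 kb of the gene start. Those of m5 and m7 stayed lower in both of these windows. Genes with a GAF peak in all 4 lists, of which there were 3745, are a closer background, chosen after seeing the data, and 22.1% of them were higher and 29.4% lower. Counts of 2 and 3 of 9 lie near these shares. At m5 and m7 GAF was lower and Zelda higher, each without overlap. Opposite directions of this kind, counted after seeing the data, were found at 1.2% of all genes and at 8.36% of the 1316 genes with a peak in all 4 GAF and all 4 Zelda lists. With each list divided by its genome-wide covered share, 3 members were higher (26.9% of those genes) and 2 lower (23.2%), m3 joined the higher members and m7 left the lower ones.

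Zelda covered more of the windows in the mutant, 78.9% and 73.6%, than in the wild type, 67.6% and 62.3%. The difference in means was 11.3 percentage points, with an exact permutation p of 0.33, the smallest that 2 lists against 2 allow (0.5 adjusted over 3 tests). In 8 of the 9 members both mutant lists lay above both wild-type lists, against 6.69% of all genes, and in none below, against 3.71%. Among the 1764 genes with a Zelda peak in all 4 lists, 37.9% were higher and 16.4% lower, and their median difference was 1.04 points against 10.5 points for the members.

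The mutant Zelda lists also covered more of the whole genome, 2.67% and 2.52% of the chromosome arms against 2.34% and 1.96%, and their peaks were wider, with medians of 559 and 565 bp against 489 and 520 bp. Divided by that genome-wide share, the windows stood at 29.5 and 29.2 times in mutant lists against 28.8 and 31.9 times in wild-type lists, a difference of -0.99 with the sign turned (exact permutation p of 1). On this scale 1 of 9 members was higher (19.6% of those 1764 genes) and 1 lower (30.9%), m3 by 27.3 and 27.2 times against 27.2 and 26.6, and m4 by 32.1 and 33.4 times against 34.8 and 38.9. The scale has a ceiling, since no window can be covered by more than its whole length. A window covered whole would stand lower in mutant replicate 1 than malpha, m4, m5 and m7 stood in wild-type replicate 2. Those members could therefore not be called higher on this scale. Wider Zelda coverage at the members and a higher total coverage of the mutant lists over the genome came together. With 2 lists per genotype and an unknown depth they cannot be told apart. The difference is not shown to be particular to the complex.

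The Zelda values by member ran as follows. E(spl)malpha-BFM had the widest difference over the full window, from 77.8% and 73.8% to 92.7% and 92.1%. Within 1 kb of its start every Zelda list covered 100%, as at m4, so no difference could appear there. E(spl)mdelta-HLH went from 54.8% and 47.6% to 58.3% and 73.0%, and E(spl)mgamma-HLH from 61.8% and 63.3% to 67.9% and 81.0%. Their mutant replicates differed from each other by more than the wild-type ones. E(spl)mbeta-HLH was the exception to the direction, from 33.8% and 32.4% to 65.4% and 18.9%, so that 1 mutant list lay above and 1 below. E(spl)m5-HLH went from 78.8% and 74.1% to 86.2% and 84.8% over the full window. It turned where the window was cut to 1 kb to either side of the gene, with 82.5% and 80.0% in the wild type against 77.7% and 75.2% in the mutant. The added m5 bases lay far upstream, and a stretch of 499 bp (chr3R:26031205-26031703) centred at -1719 bp from the m5 start was under both mutant Zelda lists and neither wild-type list.

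Over all windows, both mutant Zelda lists and neither wild-type list covered 1483 bp, and the reverse held for 90 bp. Splitting the same 4 lists by replicate number in place of genotype gave 853 bp in both replicates 1 alone and 6 bp in both replicates 2 alone. For GAF the genotype split gave 635 and 322 bp and the replicate split 467 and 134 bp. The longest stretch of the mutant GAF lists alone was 292 bp (chr3R:25999192-25999483), centred at -513 bp from the mgamma start.

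**Figure D5:**
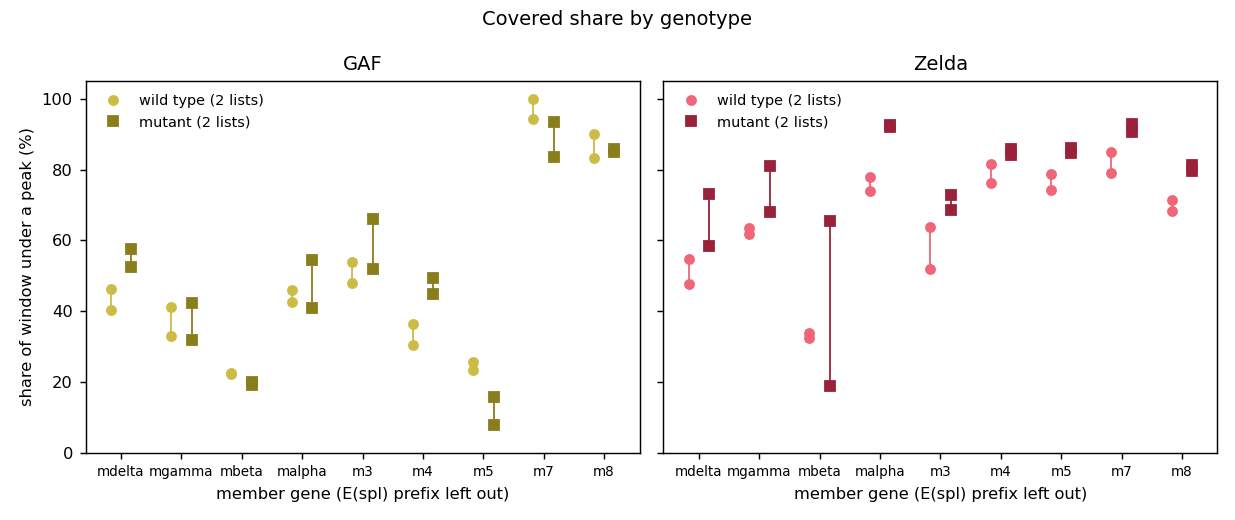
Points are the share (%) of each member's window under a peak in the 2 wild-type lists (circles) and the 2 mutant lists (squares), joined within a genotype, for GAF on the left and Zelda on the right. Squares lie above circles at 8 of 9 members for Zelda, whose mutant lists also cover more of the genome, and in both directions for GAF.

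Other genes of the Notch pathway were covered less evenly. Of 37 genes in lists of the pathway and its relatives, 18 had a peak in all 14 lists and 1, Hey, a bHLH gene of the Hairy/Hes relatives, had a peak in both replicates of no group. All 4 further genes of the complex were among the 18: Kaz-m1, a protease inhibitor gene also known as E(spl)m1, the Bearded family genes E(spl)m2-BFM and E(spl)m6-BFM, and gro, which encodes the corepressor Groucho. Their mean wild-type Zelda shares were 50.6%, 46.7%, 36.2% and 15.1%, gro being a gene of 8176 bp. All 4 Bearded genes outside the complex that were matched, Brd, Tom, Ocho and BobA, had a peak in all 14 lists too. Their mean wild-type Zelda shares were 74.4%, 84.3%, 77.7% and 89.8%, and their HIRA shares ran from 64.0% to 84.8%, above the group means of 64.9% and 44.3% over the members' windows. Of the 2 ligand and receptor genes matched, N (the Notch receptor) had peaks in all 14 lists, with 33.1% of its window under wild-type GAF and 7.79% under wild-type Zelda. Of the 3 nuclear genes mam (the coactivator Mastermind) did, with 42.5% and 4.46%. Among 8 processing and glycosylation genes only kuz, which encodes a Notch-cleaving metalloprotease, had a peak in all 14 lists, and RNA Pol II-Ser5P lay at all 8 while Zelda lay at 1, again kuz, in both wild-type replicates. The counts in all 14 lists were 3 of 6 for endocytosis and turnover genes, 2 of 4 for Hairy/Hes relatives and 2 of 6 for proneural and mesectoderm genes. Over all protein-coding genes, 7.41% had a peak in all 14 lists, 62.6% had RNA Pol II-Ser5P and 14.9% wild-type Zelda in both replicates. Zelda at 1 of 8 lies near that share. The genes kuz (89273 bp), mam (69154 bp) and N (37352 bp) are long, which gives more room for a peak, and wild-type Zelda covered 1.04% of the kuz window.

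The genes outside the complex with the most similar covered shares over the 14 lists were slp1, which encodes a forkhead transcription factor of segmentation, CG42807, emc, which encodes a helix-loop-helix protein that blocks proneural bHLH factors, pre-lola-G and CG13334. Their mean absolute difference from the members' mean was 9.69 points for slp1, 11.0 for CG42807, 11.8 for emc, 12.5 for pre-lola-G and 12.6 for CG13334. Like the mean of the members, though not like m7 and m8, slp1 was covered more by Zelda (66.4% in the wild type, 79.3% in the mutant) than by GAF (32.9% and 43.9%), dPCIF1 (21.5%) or HIRA (28.2%).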

How the data were processed

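Only embryo ChIP-seq samples with a peak list were used, and the 26 other samples were not analysed here. As the authors' methods and processing notes state, reads were trimmed with Trimmomatic 0.39, mapped to dm6 with Bowtie2 2.2.5, filtered to unique reads of quality 30 or more with SAMtools 1.18, and MACS2 2.2.7.1 called the peaks of each replicate, keeping those with a q-value of at most 0.01. The deposited lists hold the chromosome, start and end of each peak, so no height, q-value or depth was used and no interval for counting error can be given.

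Covered bases were counted in Python 3.11.15 (numpy 2.4.6, scipy 1.17.1) with scripts checked on simulated peaks. Groups came from the sample titles. One value per list was tested with exact permutation tests, adjusted over 3 tests, and members' counts were set beside the same count over 13968 protein-coding genes. The labels number the replicates, but the p-values measure only the spread between the lists. All members were described; other genes were named by the rules of peaks in all 7 groups or none (the first 6 in list order, and every gene of the none class; kuz, Brd, Tom, Ocho and BobA were added after their values were seen), and of the 5 smallest mean differences in covered share. Members, gene lists, windows and tests were chosen with earlier results of these data known. Alternatives were other windows, a width minimum, an overlap minimum, scaling by genome-wide coverage, other backgrounds, leaving out each list and a replicate block. Of the pathway names, 3 did not match a single protein-coding gene and were not analysed here. The authors' peak lists put 2 peaks off the chromosome arms, which no window touched. One stretch between members is not reported here.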

Additional observations from a re-analysis of the deposited data

Results flagged for a closer look

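At 2 members GAF and Zelda coverage went in opposite directions between the genotypes without overlap of the lists. E(spl)m5-HLH was lower for GAF by -12.6 percentage points and higher for Zelda by 9.04 points in the mutant, and E(spl)m7-HLH was lower for GAF by -8.52 points and higher for Zelda by 9.82 points. Such a pattern was found at 1.2% of all genes and at 8.36% of the 1316 genes with a peak in all GAF and Zelda lists. That the factors differ was not tested, with 2 lists per factor and genotype. After division by the genome-wide covered share of each list, Zelda was higher at neither gene and GAF was lower at m5 only. On that scale Zelda could not be called higher at m5 or m7, because even a window covered whole would stand lower in mutant replicate 1 than these genes stood in wild-type replicate 2. With peaks of at least 500 bp, GAF at m5 was 25.5% and 0% in the wild type against 0% and 0% in the mutant, so the groups touched. Over 1 kb to either side of the m5 gene, Zelda was lower in the mutant as well, by -4.84 points.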

How the results depend on the processing

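The difference between the proteins passed its threshold under all 16 alternatives, with exact permutation p from 0.00106 to 0.0286. The Zelda difference kept its sign in 9 of 10 and turned to -0.99 (times the genome-wide share) on scaling; leaving out 1 list gave 8.63 to 13.96 points. The GAF difference of -0.65 points turned to 0.89 within 1 kb of the gene start, 0.21 with peaks of at least 500 bp and 0.26 on scaling, and ran from -3.65 to 2.35 with 1 list left out, above 0 without wild-type replicate 1 (0.07) or mutant replicate 2 (2.35). Members called in every group numbered 4 with 50% of the peak inside the window and 6 with peaks of at least 500 bp. GAF was higher at 2 members within 1 kb of the gene start, neither of them mdelta or m4, at 1 member with 1 kb flanks and with peaks of at least 500 bp, and at 2 to 5 members with 1 list left out (4 without wild-type replicate 2, 5 without mutant replicate 2). GAF was lower at 3 to 5 members with 1 list left out (5 without mutant replicate 1). It was lower at 2 members under each other window, with peaks of at least 500 bp, with 50% of the peak inside and on scaling. The mbeta gene dropped out under both other windows and with 50% of the peak inside. Zelda was higher at 1 member on scaling and at 8 to 9 with 1 list left out, and lower at 1 member with 1 kb flanks, around the gene start and on scaling, and at 0 to 1 with 1 list left out (1 without mutant replicate 1). Over all annotated genes, 6.99% had a peak in all lists.

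A replicate block gave a difference of -0.65 points for GAF (exact permutation p of 1) and 11.3 points for Zelda (p of 0.5, the smallest that 2 pairs allow). Same-numbered lists did not deviate together over 13968 genes, with correlations of -0.05 for GAF and 0.04 for Zelda, so the numbers were not taken to pair the samples, and the block changed no call.

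The limits are set by 2 lists per group, by peaks without heights and by an unknown depth.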
